A study of Homo sapiens with 34 samples.

Results

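Integrin and laminin genes encode cell-surface adhesion receptors and a family of matrix proteins that these receptors bind. Every gene whose symbol is that of an integrin alpha or beta subunit or of a laminin chain was taken, without regard to its values. The set holds 38 of the 37951 genes listed: 18 integrin alpha genes, 8 integrin beta genes and 12 laminin genes (5 alpha, 4 beta and 3 gamma chains). Each symbol occurred under 1 identifier. The libraries come from wild-type ESI017, an established human pluripotent stem cell (PSC) line, which the labels describe as grown on Matrigel, a basement membrane extract that itself contains laminin. For differentiation the study's methods name Matrigel or laminin-521 as the coating, and which of them lay under the sequenced differentiated cells is not given in the sources used here. There were 34 libraries of poly(A)-selected, stranded RNA: 17 conditions with 2 replicates each, called replicates 1 and 2 below. Control cells stayed in mTeSR PLUS medium, and both control libraries are labelled 48 h, so comparisons of 24 h cells with the control also differ in time. The study's methods give Essential 6 as the base of the day 1 treatments. Each treated condition thus also differs from the control in its day 1 base medium. On day 1 the treated cells were taken to 4 primitive streak (PS)-like states and collected at 24 h. DE(a) cells, on the way to definitive endoderm, received 100 ng/ml activin A and 2 µM CHIR99021, an activator of Wnt signalling. Anterior PS (APS) cells received activin A at 30 ng/ml together with bFGF at 20 ng/ml and CHIR99021 at 4 µM. Mid PS (MPS) cells received BMP4 at 40 ng/ml and CHIR99021 at 6 µM, beside activin A and bFGF as in APS. For posterior PS (PPS) cells, activin A was left out of the MPS mix. On day 2 each of the 4 states was moved to each of 3 media and collected at 48 h. DE(b), the endoderm medium, held 100 ng/ml activin A and 250 nM LDN-193189, a blocker of BMP receptors. PM, the paraxial mesoderm medium, held A-8301 at 1 µM, which blocks activin and TGF-beta receptors, LDN-193189 at 250 nM and bFGF at 20 ng/ml. The labels and methods list no CHIR99021 in PM, but a legend of the study does. The study's text also describes Wnt activation in PM on day 2. LM, the lateral mesoderm medium, held 30 ng/ml BMP4, 1 µM A-8301 and 4 µM IWP2, a blocker of Wnt secretion. A condition is named by its day 1 treatment and its day 2 medium, and the standard protocols are MPS-LM for lateral mesoderm, APS-PM for paraxial mesoderm and DE(a)-DE(b) for endoderm. All conditions derive from a single cell line, and the study describes a subset of amnion-like cells in LM cultures.

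An integrin is a heterodimer of an alpha and a beta chain that links the matrix outside the cell to the actin cytoskeleton inside it. The alpha chain largely sets what is bound: ITGA3, ITGA6 and ITGA7 serve laminin, ITGA5, ITGAV and ITGA8 bind proteins with an RGD peptide such as fibronectin, ITGA1, ITGA2, ITGA10 and ITGA11 bind collagen, and ITGA4 and ITGA9 bind fibronectin variants, VCAM1 or tenascin. ITGB1 pairs with most of these alpha chains, and ITGB5 and ITGB8 pair with ITGAV. A laminin is a trimer of an alpha, a beta and a gamma chain, which is secreted into basement membranes. The chains LAMA1, LAMB1 and LAMC1 form laminin-111, found in early embryos, and LAMA5 replaces LAMA1 in laminin-511, a matrix on which human PSCs are commonly grown.

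The sequences upstream of 3 integrin alpha genes are shown, because ITGA5 gave the largest rise and ITGA6 the largest fall among well-expressed members at 24 h, and ITGA8 the largest rise in LM. Each is the 250 bases before the RefSeq start of the gene (build GRCh38.p14), written 5′ to 3′ on the gene's strand. Capitals mark matches, on either strand, to the motifs searched. CACCTG is the E-box that Snail and ZEB factors bind. GGGCGG is the binding element of Sp factors, and TATAAA is the core promoter element. The letters AGATAA stand for a zinc finger factor family active in endoderm and heart, the letters TGTTTAC for forkhead factors, and the letters AGGTGTGA for T-box factors. Overlapping matches were counted separately, and neighbouring GGGCGG matches in ITGA8 share letters.
ITGA6, chr2:172427086-172427335, plus strand: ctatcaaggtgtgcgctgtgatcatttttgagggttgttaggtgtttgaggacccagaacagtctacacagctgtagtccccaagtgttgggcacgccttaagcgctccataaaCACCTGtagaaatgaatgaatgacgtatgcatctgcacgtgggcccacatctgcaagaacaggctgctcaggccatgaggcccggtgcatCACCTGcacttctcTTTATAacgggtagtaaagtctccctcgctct
ITGA5, chr12:54419267-54419516, minus strand: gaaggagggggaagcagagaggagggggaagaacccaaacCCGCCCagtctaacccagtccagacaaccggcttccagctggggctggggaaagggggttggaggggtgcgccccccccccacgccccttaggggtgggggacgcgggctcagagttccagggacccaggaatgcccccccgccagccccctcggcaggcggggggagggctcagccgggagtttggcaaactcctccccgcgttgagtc
ITGA8, chr10:15719923-15720172, minus strand: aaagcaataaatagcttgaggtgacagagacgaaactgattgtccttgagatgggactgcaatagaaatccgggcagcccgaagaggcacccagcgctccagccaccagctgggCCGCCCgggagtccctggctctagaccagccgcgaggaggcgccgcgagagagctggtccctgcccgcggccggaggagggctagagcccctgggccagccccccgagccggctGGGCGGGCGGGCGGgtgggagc
The ITGA6 window held 2 CACCTG motifs and 1 TATAAA, the ITGA5 window 1 GGGCGG and the ITGA8 window 4 of them. Of the 38 members, 26 had an entry in the promoter table. CACCTG stood in 7 of these 26 windows and in 17.5% of 35116 windows of the same length. GGGCGG stood in 13 of 26, against 42.6% of all. TATAAA stood in 1 of 26 (10.7% of all) and AGATAA in 1 of 26, that of LAMA4 (9.17% of all), while 0 of 26 held TGTTTAC (2.98%) or AGGTGTGA (0.786%). A match describes letters in a window, and no binding was measured.

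Levels are given in CPM, estimated counts scaled to library totals of equal size. Totals ranged from 15522780 to 23439799 estimated counts, with a median of 19341117. Intervals and limits from these totals cover counting error only. Of the 38 members, 22 averaged 10 CPM or more in a condition and are called well expressed below (11 integrin alpha, 3 integrin beta and 8 laminin genes), and 19 of them did so in the control. A further 12 members peaked between 1 and 10 CPM, and 4 (ITGAD, ITGAL, ITGB6 and LAMB4) stayed under 1 CPM with at most 14 counts in any library. The filter on low counts was passed by 34 members, all but those 4. Together the members took 0.210% and 0.212% of the control counts, and 0.537% and 0.566% of those in PPS-LM, the highest mean. The labels were checked against marker genes. The pluripotency gene SOX2 lay at 278 to 331 CPM in the control and at 0.361 to 28.3 CPM at 24 h. CER1 was at 3329 to 6006 CPM in DE(b), TBX6 at 146 to 195 CPM in PM and HAND1 at 388 to 2127 CPM in LM, each range lying above all libraries of the other day 2 media. Of the other endoderm markers, SOX17 behaved like CER1 (113 to 553 CPM in DE(b), at most 94.8 elsewhere on day 2). FOXA2 at 2.17 to 125 CPM in DE(b) overlapped PM and LM, which reached 33.0 and 34.6 CPM, and CXCR4 did not mark DE(b), where it lay at 9.25 to 168 CPM, with an overlapping and mostly higher range of 156 to 335 CPM in PM. Bulk RNA cannot tell fewer cells of a type from less RNA per cell.

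More members rose than fell against the control, both at 24 h and in each day 2 medium. Differences were tested with edgeR's quasi-likelihood test in a single model over the 34 libraries, and a gene was called at a Benjamini-Hochberg adjusted p under 0.05 over 17895 genes. At 24 h (mean of the 4 day 1 conditions) 12 of the 34 tested members rose and 1, ITGA6, fell. Of all genes tested, 32.5% were called, 16.9% higher and 15.6% lower. The median log2 fold change was 0.68 over the members and 0.01 over all genes. In DE(b) medium 13 members rose and 6 fell against the control (all genes 45.3%, with 22.4% higher and 22.9% lower). In PM 13 rose and 8 fell (all genes 45%, with 22.3% higher and 22.7% lower). In LM 14 rose and 8 fell (all genes 48.9%, with 24.3% higher and 24.6% lower). The members' median log2 fold changes were 0.46 for DE(b), 0.36 for PM and 0.68 for LM, beside -0.01, 0.00 and 0.02 over all genes. The genes that rose at 24 h included, from the largest change down, ITGAX, ITGA5, ITGB2, ITGA9, LAMB1, LAMC1, ITGB8, ITGAV, ITGB5, LAMC3 and ITGB1. The ITGAX control libraries lay at 0.0452 and 0.0532 CPM, under 3 counts each. Its rise is thus known only as at least 8.46-fold, to a 24 h mean of 1.25 CPM, and its first place rests on that low control. Those that fell in DE(b) were ITGAM, LAMA3, ITGA2, ITGA6, ITGB4 and ITGA7, those in PM ITGA2, ITGA6, ITGB3, LAMA4, LAMA3, ITGB4, ITGA3 and LAMC3, and those in LM included ITGA6, ITGA2, ITGB4, LAMA3, ITGA3, ITGA4 and ITGA7. These comparisons share the control libraries and are given side by side only. Values written below with ± and no percent sign are log2 fold changes with their SE, and each passed the test.

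**Figure D1:**
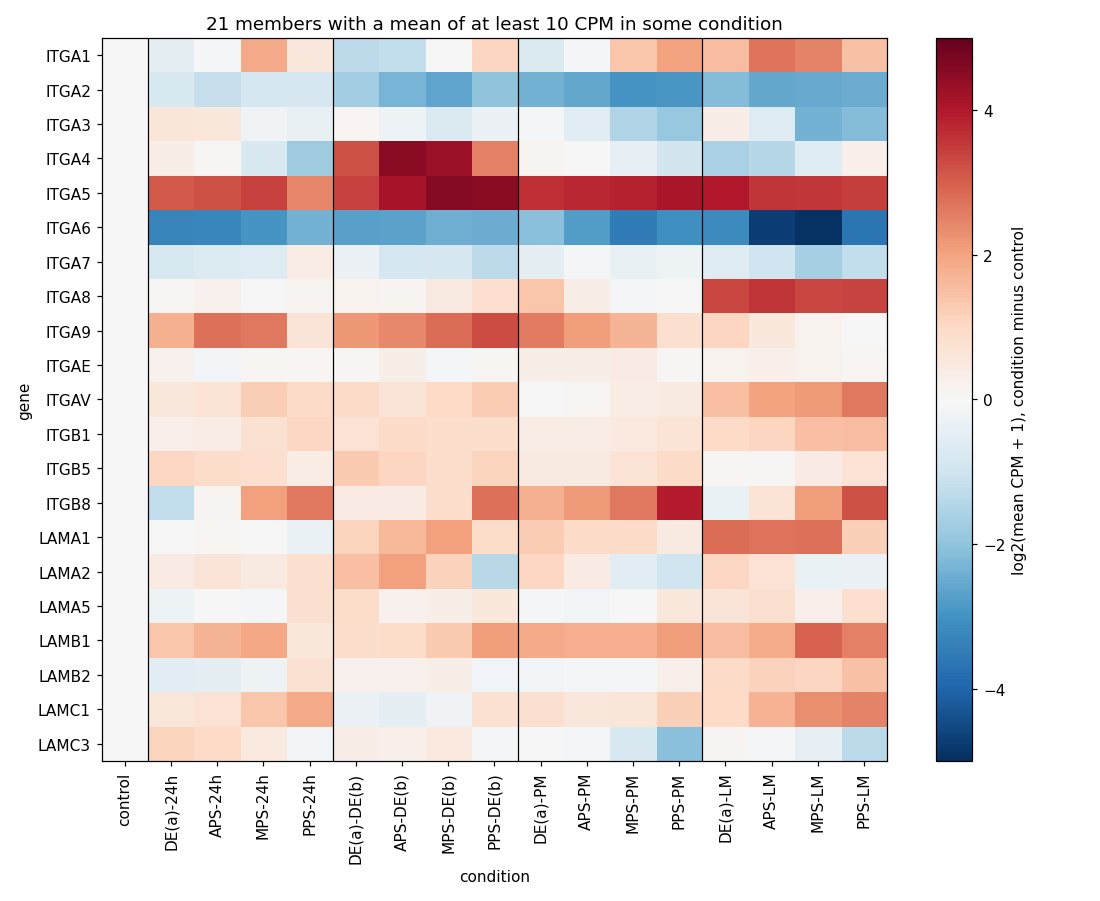
Condition minus control difference in log2(mean CPM + 1) for 21 well-expressed members, with a row for each gene and a column for each of the 17 conditions, blue for lower and red for higher. ITGA6 is blue and ITGA5 red in all 16 treated conditions, while ITGA4 is deep red in DE(b) columns and ITGA8 in LM columns.

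Of the laminin-binding alpha genes, ITGA6 showed the largest fall. It was at 265 and 283 CPM in the control, at 24.9 to 60.0 CPM with a median of 32.3 in the 8 libraries at 24 h, and at 6.57 to 31.3 CPM with a median of 14.1 in the 8 LM libraries. The control did not overlap any other condition. At 24 h it fell (log2 fold change -2.94 ± 0.17, edgeR adjusted p = 1.1e-11), and it also fell in DE(b) medium (-2.56 ± 0.17), PM (-2.93 ± 0.17) and LM (-4.18 ± 0.17). ITGA6 was lower in LM than in DE(b) (-1.62 ± 0.13, edgeR adjusted p = 6.8e-10) and than in PM (-1.26 ± 0.13). ITGA3, whose product also binds laminin, was at 26.0 and 22.8 CPM in the control and 50.1 and 26.0 in DE(a) at 24 h, and reached its lowest values in MPS-LM at 4.02 and 3.94 and PPS-LM at 4.45 and 4.82. ITGA7, known from muscle, ranged from 34.3 and 27.7 CPM in MPS-LM to 96.1 and 163 in PPS at 24 h, around a control of 109 and 90.1. The control of ITGA7 thus lay inside the range of the treated libraries, unlike that of ITGA6.

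ITGA5, the fibronectin receptor chain, moved the other way. It was at 17.4 and 15.8 CPM in the control, 77.2 to 232 CPM with a median of 140.5 at 24 h, 186 to 432 CPM with a median of 339.7 in DE(b), 214 to 331 CPM with a median of 242 in PM and 161 to 285 CPM with a median of 211 in LM. All 32 treated libraries lay above both control libraries. ITGA5 rose at 24 h (3.18 ± 0.25, edgeR adjusted p = 1.2e-09), in LM (3.76 ± 0.25), in PM (3.90 ± 0.26) and in DE(b) (4.28 ± 0.26). ITGAV, which binds RGD proteins with several beta chains, stood at 92.0 and 114 CPM in the control and was highest in LM, at 234 to 704 CPM with a median of 414, beside 91.0 to 148 CPM with a median of 122 in PM. The ranges at 24 h (149 to 251 CPM) and in DE(b) (156 to 259 CPM) overlapped that of LM. The LM and PM libraries did not overlap (1.91 ± 0.12, edgeR adjusted p = 1.4e-11). ITGA8, the RGD-binding chain known from the developing kidney, was near 0 outside LM. Its LM libraries were at 7.06 to 12.7 CPM with a median of 10.9, while the control held 0 and 2 counts, under the limit of 3 counts per library. Against that limit, a mean of 0.147 CPM, the LM mean was at least 69.1-fold higher. The highest ITGA8 values outside LM were 3.46 CPM in replicate 1 of DE(a)-PM, whose replicate 2 was listed at 0, and 1.31 and 0.485 in PPS-DE(b). ITGA8 was called higher in LM than in PM and DE(b) (edgeR adjusted p = 9.3e-07 and 3.2e-06).

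ITGA4 and ITGA9, close relatives in sequence, were both high in DE(b). ITGA4 was at 5.11 and 3.57 CPM in the control and at 0.256 to 6.23 CPM with a median of 3.59 at 24 h. In DE(b) medium it reached 49.2 and 46.4 CPM from DE(a), 111 and 130.3 from APS, 92.0 and 113 from MPS and 19.0 and 40.4 from PPS. All 8 DE(b) libraries lay above all others, since PM libraries were at 1.19 to 5.53 CPM with a median of 3.97 and LM libraries at 0.427 to 5.54 CPM with a median of 1.64. ITGA4 rose in DE(b) against the control (3.93 ± 0.40, edgeR adjusted p = 5.2e-08) and against PM (4.36 ± 0.22), and was lower in LM than in DE(b) (-5.17 ± 0.24). The endoderm markers CER1 and SOX17 were also above all other day 2 libraries in DE(b), while FOXA2 and CXCR4 were not. The study concludes that MPS and PPS cells lose endoderm potential. The part of endoderm cells in the ITGA4 result was not tested. ITGA9 was at 8.44 and 11.8 CPM in the control, 15.7 to 85.1 CPM with a median of 45.1 at 24 h, 48.9 to 116 CPM with a median of 65.1 in DE(b), 18.1 to 83.7 CPM with a median of 37.5 in PM and 9.10 to 24.3 CPM with a median of 13.6 in LM. It rose at 24 h (2.13 ± 0.26, edgeR adjusted p = 1.4e-06), in DE(b) (2.81 ± 0.28) and in PM (1.87 ± 0.26), and was lower in LM than in DE(b) (-2.30 ± 0.15) and PM (-1.36 ± 0.15). The LM libraries of ITGA9 overlapped the control, which was not the case in DE(b).

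Of the collagen-binding chains, ITGA1 was high in LM and ITGA2 fell in each day 2 medium. ITGA1 was at 11.4 and 15.3 CPM in the control and at 31.5 to 93.7 CPM with a median of 60.9 in LM, above the control in all 8 libraries. It was higher in LM than in PM (1.53 ± 0.15, edgeR adjusted p = 1.3e-08) and DE(b) (2.55 ± 0.15). ITGA1 was lower in DE(b) than in PM (-1.02 ± 0.15). These tests compare means over the day 1 treatments. The PM libraries of ITGA1, at 7.67 to 56.8 CPM, overlapped those of LM. LM lay above PM after DE(a), APS and MPS. After PPS the order turned, with 56.8 and 56.7 CPM in PPS-PM against 44.5 and 32.7 in PPS-LM. ITGA2 was at 11.3 and 16.9 CPM in the control, at 5.20 to 10.6 CPM with a median of 6.79 at 24 h, and under 5 CPM in all 24 libraries at 48 h. ITGA2 fell against the control in LM (-2.94 ± 0.34, edgeR adjusted p = 3.0e-07), in PM (-3.45 ± 0.34) and in DE(b) (-2.59 ± 0.35). ITGA11, a collagen chain of mesenchymal cells, peaked at 4.78 and 5.40 CPM in DE(a)-LM, and ITGA10 stayed at a mean of at most 1.79 CPM. ITGAE, best known from lymphocytes in epithelia, ran from a mean of 9.75 to 14.9 CPM, and passed the test in none of the comparisons with the control.

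Because CPM depends on gene length, chains were set against each other as shares of CPM per kilobase (kb) of merged exon length. ITGA6 made up 59.8 ± 1.45% (SD, n = 2) of the summed integrin alpha level in the control, and its largest share elsewhere was 14.3 ± 2.75% in PPS at 24 h. ITGA5 went from 3.29 ± 0.300% in the control to 23.5 ± 6.41% in PPS at 24 h and 56.5 ± 2.49% in PPS-PM. In PPS-LM the largest share was that of ITGAV, 44.3 ± 5.83%, with ITGA5 at 34.2 ± 7.25%, and the replicates of the 2 genes did not overlap although their gap was smaller than the sum of the SDs. ITGA4 reached 13.1 ± 1.23% in APS-DE(b). With the length of the longest transcript instead, the control share of ITGA6 was 46.7 ± 1.76% and that of ITGA5 3.30 ± 0.257%, so the order in the control held. The merged exon length is 19336 bases for ITGAV and 7383 for ITGA5, against longest transcripts of 7951 and 4996 bases. The size of the ITGAV shares thus depends on the length used.

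**Figure D2:**
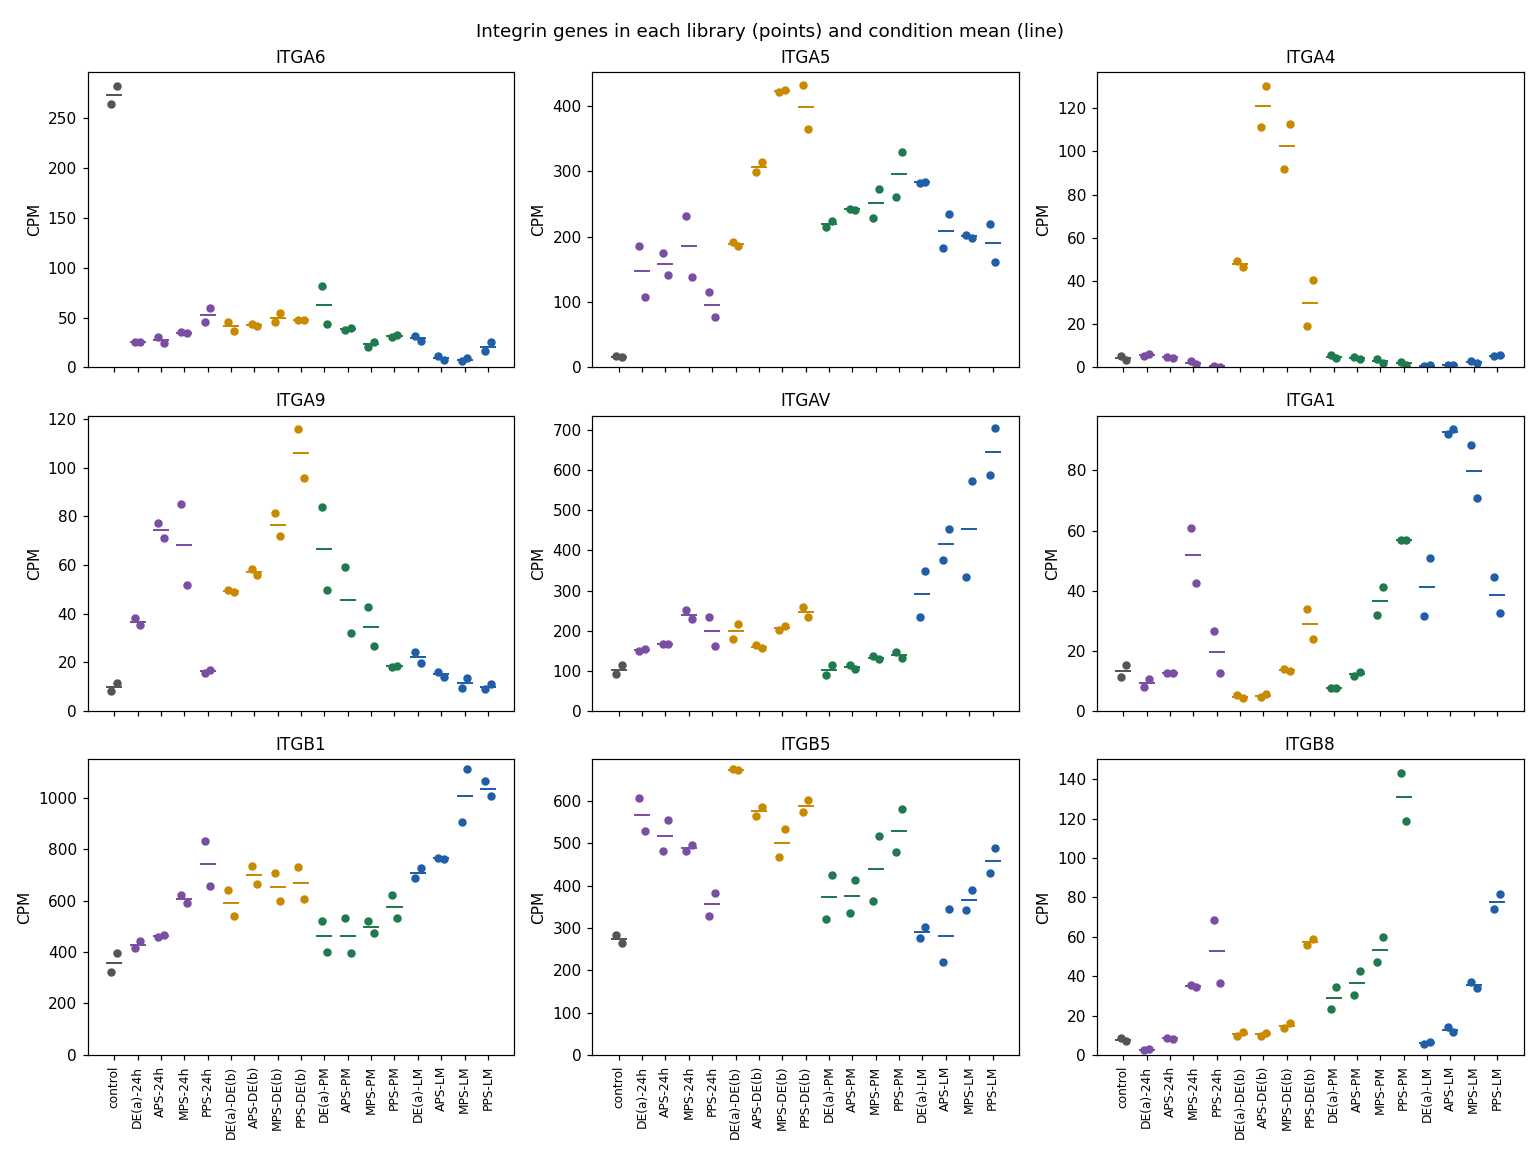
CPM of 9 integrin genes in the 34 libraries, with a point per library and a line at the mean of the 2 replicates, by condition (grey control, purple 24 h, orange DE(b), green PM, blue LM). ITGA6 is high only in the control and ITGA4 only in DE(b). ITGAV and ITGB1 have their highest mean in PPS-LM, and ITGB8 climbs from DE(a) to PPS within each color.

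Of the beta genes, ITGB1, the common partner, rose in all 4 comparisons with the control. It was at 324 and 395 CPM in the control, 414 to 832 CPM with a median of 529 at 24 h and 689 to 1109.6 CPM with a median of 836 in LM. Its log2 fold change was 0.68 ± 0.14, edgeR adjusted p = 6.1e-04 at 24 h, beside 0.90 ± 0.14 for DE(b), 0.45 ± 0.14 for PM and 1.31 ± 0.15 for LM. The 24 h and PM calls ended without control replicate 1, with log2 fold changes of 0.53 and 0.30. ITGB1 was also higher in LM than in PM (0.86 ± 0.09) and DE(b) (0.42 ± 0.08). ITGB5, a partner of ITGAV, ran from 219 to 488 CPM with a median of 344 in LM to 467 to 675 CPM with a median of 580.4 in DE(b), with the control at 283 and 264. All DE(b) libraries of ITGB5 lay above the control, and LM overlapped it.

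ITGB8, which with ITGAV holds and activates latent TGF-beta, was lowest with the DE(a) treatment and highest with PPS in each block. At 24 h it was at 2.43 and 2.90 CPM in DE(a), 8.85 and 8.15 in APS, 35.7 and 34.5 in MPS and 68.6 and 36.7 in PPS, beside 8.47 and 6.86 in the control. The MPS and PPS libraries at 24 h did not overlap, but this step did not pass the test. In PM the libraries from DE(a) were at 23.3 and 34.3 and those from PPS at 143 and 119 CPM. In LM the values were 5.41 and 6.35 from DE(a) and 74.2 and 81.6 from PPS, and in DE(b) they were 9.62 and 11.4 from DE(a) and 56.0 and 59 from PPS. Among the means of the 4 histories, the lowest was that from DE(a) and the highest that from PPS in each of the 3 media. Against the control it rose by 2.75 ± 0.23 (log2) in PM, and it was lower in DE(b) than in PM (-1.52 ± 0.12).

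The other beta genes and the alpha chains best known from blood cells stayed low. ITGAM peaked at 3.49 and 3.98 CPM and ITGAX at 4.69 and 2.88 CPM, both in PPS at 24 h, and ITGB2, their partner, at 10.3 and 7.64 in MPS-PM. ITGB2 and ITGAX were called higher than the control at 24 h, in PM and in LM, at under 10 CPM on average in each condition. ITGB3, the platelet beta chain, peaked at 3.0 and 4.94 CPM in DE(a)-DE(b) and was at 0 to 0.281 CPM with a median of 0 in PM, while its partner ITGA2B peaked at 8.22 and 7.14 in APS-PM. ITGB3 and ITGA2B thus had their maxima in different media. ITGB4, the hemidesmosome partner of ITGA6, reached 1.73 and 2.53 in PPS at 24 h, and ITGB7 2.28 and 1.12 in DE(a) at 24 h. The 5 blood markers beside them were at or near 0: the leukocyte gene PTPRC reached at most 0.0988 CPM, CD3E 0.148, SPI1 0.829, and the platelet genes PF4 0.585 and GP9 0.0637.

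Among the laminin alpha genes, LAMA1 rose on day 2 and most in LM. It was at 102 and 97.4 CPM in the control and 67.9 to 126 CPM with a median of 93.3 at 24 h, which overlap. In LM it was at 641 and 765 from DE(a), 644 and 668 from APS and 696 and 662 from MPS, but 218 and 243 from PPS. It rose in LM against the control (log2 fold change 2.42 ± 0.19, edgeR adjusted p = 7.2e-10) and was higher than in PM (1.52 ± 0.10), and it rose in DE(b) against the control (1.48 ± 0.18). DE(b) libraries ranged from 181 to 466 CPM with a median of 250.1 and PM libraries from 127 to 273 CPM with a median of 192. LAMA5 was at 319 to 613 CPM with a median of 456 in LM and 321 and 268 in the control, with replicates far apart in DE(a)-DE(b) (373 and 739.5) and PPS at 24 h (302 and 718). LAMA2, the chain of muscle laminin, peaked at 44.2 and 54.5 CPM in APS-DE(b) and was lowest in PPS-DE(b) at 3.85 and 3.40, and it was higher in DE(b) than in PM (0.93 ± 0.24). LAMA3, of skin laminin, peaked at 5.45 and 5.26 and LAMA4, of vessel laminin, at 7.33 and 4.49 CPM. Per kb, LAMA1 made up 22.7 ± 1.49% (SD, n = 2) of the alpha level in the control and 62.9 ± 2.52% in MPS-LM, where LAMA5 went from 74.1 ± 2.37% to 36.4 ± 2.58%. In PPS-LM the LAMA1 share was 28.3 ± 3.24%.

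**Figure D3:**
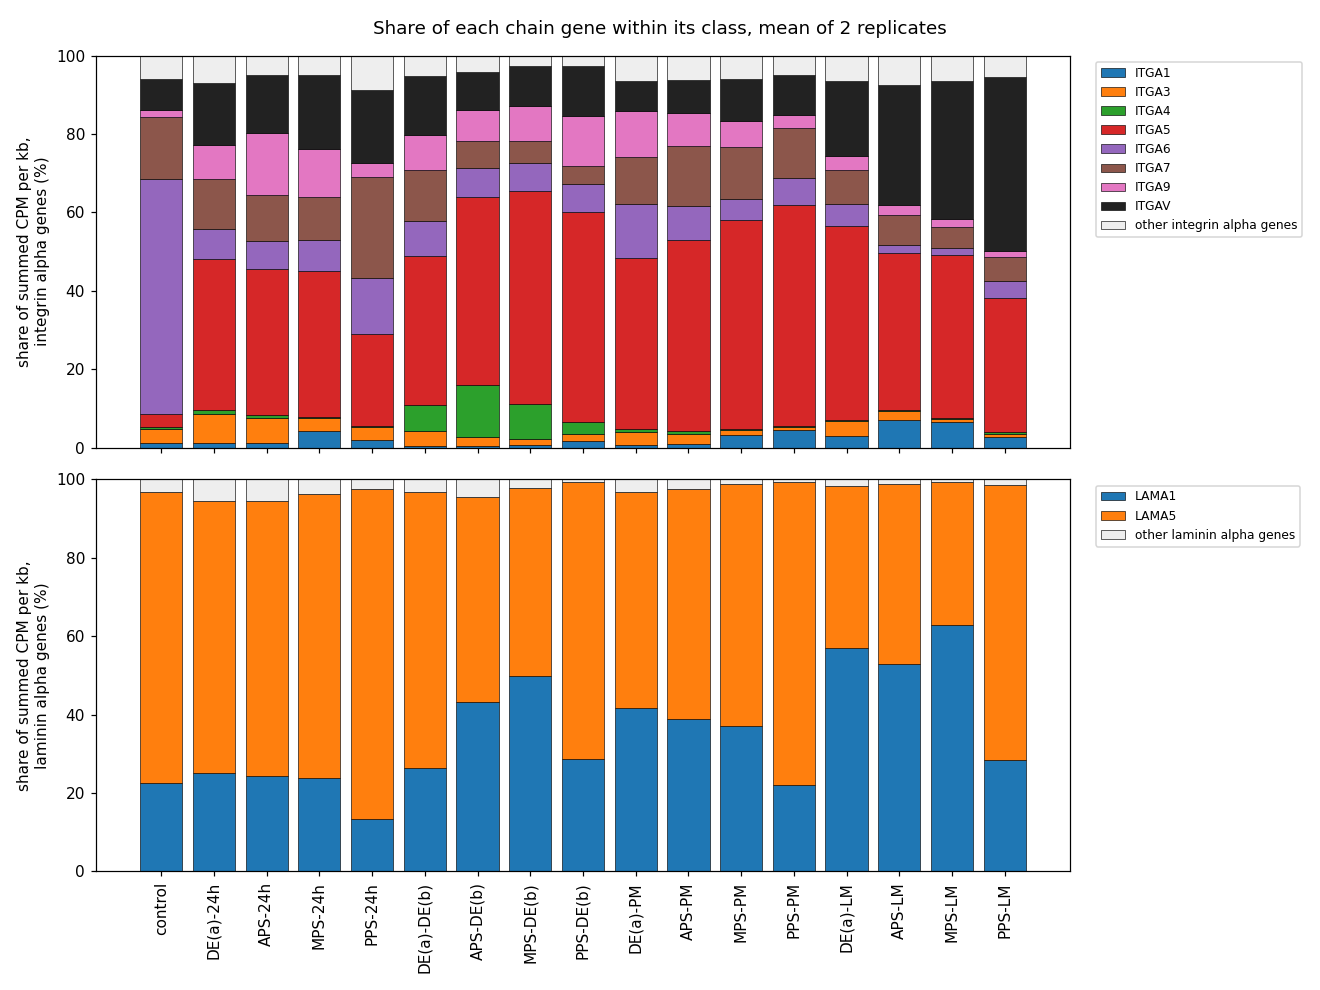
Share (%) of each chain gene in the summed CPM per kb of its class, for integrin alpha (top) and laminin alpha genes (bottom), as stacked bars by condition, mean of 2 replicates. The ITGA6 share falls from 59.8% in the control, and the LAMA1 share is 57.0%, 52.9% and 62.9% in DE(a)-LM, APS-LM and MPS-LM but 28.3% in PPS-LM.

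The beta and gamma partners in laminin-111 rose already at 24 h. LAMB1 was at 92.5 and 91.6 CPM in the control and 124 to 378 CPM with a median of 258 at 24 h, above the control in all 8 libraries. It rose at 24 h (1.47 ± 0.15, edgeR adjusted p = 7.8e-08), and by 1.35 ± 0.15, 1.89 ± 0.15 and 2.26 ± 0.16 in DE(b), PM and LM, with its highest values in MPS-LM at 747 and 670.2 CPM. LAMC1 was at 232 and 248 CPM in the control, and at 24 h stood at 322 and 384 in DE(a), 336 and 468 in APS, 561 and 715 in MPS and 800.4 and 969 in PPS. LAMC1 rose at 24 h (1.22 ± 0.19, edgeR adjusted p = 2.3e-05), in PM (0.79 ± 0.18) and in LM (1.93 ± 0.20), where it was highest in PPS-LM at 1363 and 1334 CPM. In DE(b), LAMC1 was at 160.0 to 434 CPM with a median of 213, lower than in PM (-0.80 ± 0.11) and than in LM (LM minus DE(b) 1.94 ± 0.11), and it passed no test there against the control. LAMB1 and LAMC1 were both lower in DE(b) than in PM (LAMB1 -0.55 ± 0.08), and both higher in LM than in PM (LAMB1 0.37 ± 0.08, LAMC1 1.14 ± 0.11). LAMB1 was also higher in LM than in DE(b) (0.91 ± 0.09).

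LAMB2, which can replace LAMB1, was at 105 and 84.2 CPM in the control and 152 to 278 CPM with a median of 212 in LM, above the control in all 8 libraries. LAMC3 had its highest mean in DE(a) at 24 h, with libraries at 73.1 and 68.2 CPM, and its lowest in PPS-PM, at 5.47 and 8.23, and DE(b) exceeded PM (1.09 ± 0.15). Per kb, LAMC1 made up 80.5 ± 0.829% of the gamma level in the control and 97.5 ± 0.200% in MPS-LM. LAMB3 peaked at 7.06 and 4.80 CPM in MPS at 24 h.

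**Figure D4:**
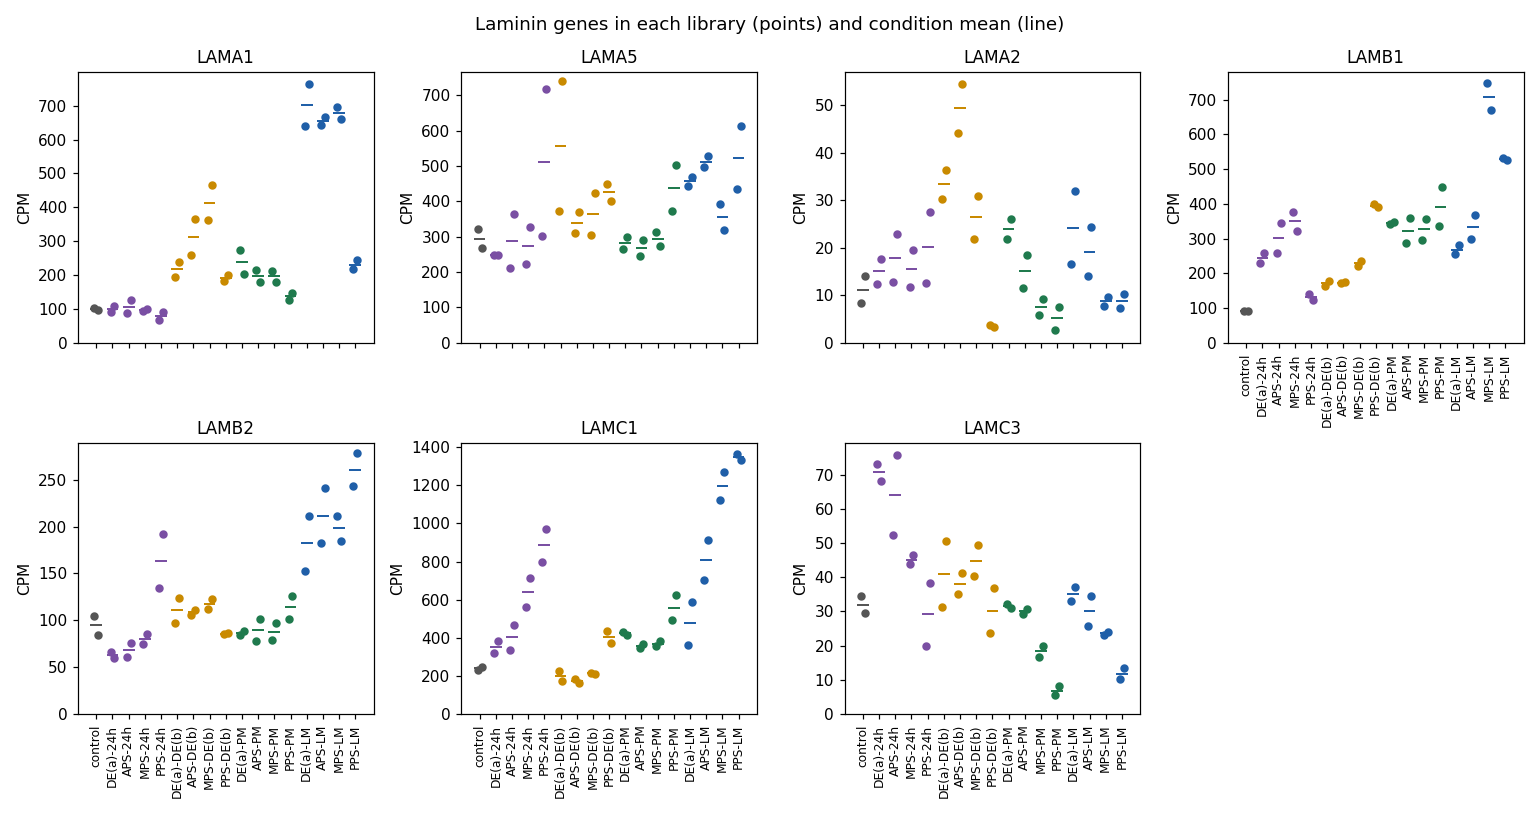
CPM of 7 laminin genes in the 34 libraries, a point per library and a line at the mean of the 2 replicates, by condition and colored as in the plot of integrin genes. LAMA1 is highest in 3 of the 4 LM conditions, LAMC1 climbs from DE(a) to PPS at 24 h and in LM, and the mean of LAMC3 is highest in DE(a) at 24 h.

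The 3 media were then set against each other, each with 8 libraries over the 4 day 1 treatments. Between DE(b) and PM, 16 members were higher in DE(b) and 12 lower (all genes 43%, with 21.4% higher and 21.6% lower). LM had 13 members higher and 9 lower than PM (all genes 42%, with 21% higher and 21% lower). It had 12 higher and 9 lower than DE(b) (all genes 39.6%, with 19.8% higher and 19.8% lower). Against PM, the largest difference of a well-expressed member was that of ITGA4 in DE(b) and that of ITGA8 in LM. The 5 amnion markers (GATA3, KRT7, TFAP2A, TFAP2C and VTCN1) were all higher in LM than in PM. Against DE(b) 4 were higher in LM and 1 lower, and against the control 2 were higher and 2 lower. Their summed level was 66.6 to 338 CPM in LM libraries and 15.1 to 29.4 in DE(b). It was 5.64 to 17.5 in PM and 15.3 to 19.7 in the control. Within LM it was 289 in PPS-LM and 227 in DE(a)-LM, against 73.6 in APS-LM and 85.1 in MPS-LM, and its part in the LM differences was not tested. ITGA8 was at 11.3 and 12 CPM in APS-LM, 11.8 and 7.47 in MPS-LM and 12.7 and 7.06 in PPS-LM. Its mean in DE(a)-LM was 9.59 CPM, the lowest of the LM conditions. ITGAV was at 376 and 453 CPM in APS-LM, 334 and 573 in MPS-LM, 234 and 348 in DE(a)-LM and 586 and 704 in PPS-LM. All these ITGAV values lie above the PM libraries. ITGA1 was at 92.1 and 93.7 CPM in APS-LM and 88.4 and 71.0 in MPS-LM. In PPS-LM it was at 44.5 and 32.7 CPM, and in DE(a)-LM at 31.5 and 50.8.

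The 4 day 1 treatments were compared step by step at 24 h, and neighbouring steps share the libraries of the treatment between them. From DE(a) to APS, with less activin A, more CHIR99021 and bFGF added, 1 member was called (all genes 0.732%, with 0.609% higher and 0.123% lower): ITGB8 rose (1.65 ± 0.27, edgeR adjusted p = 0.0021). This call ended without replicate 1 of DE(a) at 24 h (1.53) and with only the compared libraries in the model (1.64). From APS to MPS, with BMP4 added and more CHIR99021, 2 members rose and 1 fell (all genes 2.93%, with 1.89% higher and 1.03% lower). ITGA1 rose from 12.6 and 12.55 to 60.8 and 42.7 CPM (2.06 ± 0.30, edgeR adjusted p = 2.1e-04) and ITGB8 by 2.06 ± 0.25, while LAMA4, at 7.33 and 4.49 CPM in APS and 1.17 and 1.72 in MPS, fell.

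From MPS to PPS, with activin A left out, 2 members rose and 6 fell (all genes 6.14%, with 2.79% higher and 3.35% lower). ITGA9 fell from 85.1 and 51.8 to 15.7 and 17 CPM (-2.14 ± 0.30, edgeR adjusted p = 8.6e-05) and LAMB1 from 378 and 323 to 140.0 and 124 (-1.49 ± 0.17, edgeR adjusted p = 1.2e-05). The other calls were ITGA4 (-1.93 ± 0.54), ITGA1 (-1.47 ± 0.29), ITGA5 (-1.03 ± 0.25) and LAMB2 (0.95 ± 0.21), beside ITGB2 and ITGA2B under 10 CPM. ITGA4 was low in this comparison too, at 2.87 and 1.37 CPM in MPS and 0.876 and 0.256 CPM in PPS. The calls of ITGA4, ITGA1, ITGA5 and LAMB2 each ended without MPS-24h replicate 1 (log2 fold changes -1.27, -1.17, -0.58 and 0.88) and without PPS-24h replicate 2 (-1.33, -1.02, -0.76 and 0.68), leaving 2 and 3 members called. They also ended with only the compared libraries in the model. Of the 5 amnion markers 2 rose in this step, with a summed level of 113 and 148 CPM in PPS against 43.0 and 51.0 in MPS, and their part in it was not tested.

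On day 2 of the standard endoderm protocol, DE(a)-DE(b) against DE(a) at 24 h, 8 members rose and 9 fell (all genes 28%, with 14.5% higher and 13.5% lower). ITGA4 rose most among well-expressed members (3.01 ± 0.42, edgeR adjusted p = 1.4e-05), beside ITGB8 (1.90 ± 0.27), LAMA5 (1.10 ± 0.34) and LAMA1 (1.06 ± 0.20). ITGA1 (-1.03 ± 0.31), LAMC1 (-0.90 ± 0.22) and LAMB1 (-0.57 ± 0.17) fell. Without DE(a)-DE(b) replicate 2, the LAMA5 value was 0.50, and the LAMA5 call also ended without either DE(a) library at 24 h (1.09 and 1.10). The ITGA1 and LAMC1 calls ended without the same DE(a)-DE(b) library (-0.90 and -0.75), the LAMB1 call without DE(a)-DE(b) replicate 1 (-0.51), and those of ITGA1 and LAMB1 without DE(a)-24h replicate 2 (-0.81 and -0.47). With only the compared libraries in the model, the ITGA1 and LAMB1 calls ended too. The ITGA4, ITGB8 and LAMA1 calls held in each of these alternatives.

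In the standard paraxial protocol, APS-PM against APS at 24 h, 4 members rose and 9 fell (all genes 25.1%, with 11.9% higher and 13.2% lower). ITGB8 rose (2.01 ± 0.25, edgeR adjusted p = 3.3e-06), while ITGA2 (-1.98 ± 0.52), ITGA3 (-1.28 ± 0.37), LAMC3 (-1.20 ± 0.29) and ITGA9 (-0.81 ± 0.28) fell. Calls ended without APS-PM replicate 1 for ITGA2 (-1.65), without APS-24h replicate 2 for LAMC3 (-0.90) and ITGA9 (-0.85), and without APS-24h replicate 1 or APS-PM replicate 2 for ITGA3 (-0.90 and -1.07) and ITGA9 (-0.72 and -0.43). The ITGA9 call also ended with only the compared libraries in the model. In the standard lateral protocol, MPS-LM against MPS at 24 h, 9 rose and 9 fell (all genes 31.3%, with 14.4% higher and 16.9% lower). LAMA1 rose (2.79 ± 0.22, edgeR adjusted p = 3.3e-09), as did LAMB1 (1.00 ± 0.17), LAMC1 (0.90 ± 0.22) and ITGB1 (0.72 ± 0.17), and ITGA8 went from 0.0868 and 0 to 11.8 and 7.47 CPM. ITGA9 (-2.59 ± 0.30), ITGA3 (-2.46 ± 0.40) and ITGA6 (-2.13 ± 0.26) fell. The ITGB1 call ended without MPS-LM replicate 2 (0.54) and that of LAMC1 without MPS-24h replicate 1 (0.76).

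Within each day 2 medium, cells that came from PPS were compared with cells that came from DE(a), to see what day 1 left behind. After DE(b), 8 members were higher from PPS and 5 lower (all genes 17.4%, with 8.63% higher and 8.73% lower). After PM, 3 were higher and 9 lower (all genes 8.61%, with 3.67% higher and 4.95% lower). After LM, 8 were higher and 5 lower (all genes 14.3%, with 6.52% higher and 7.81% lower). Markers of other cell types moved with this history, and their part in the member differences was not tested. After DE(b), 3 of 3 paraxial (TBX6, MSGN1 and CDX2) and 3 of 3 lateral markers (HAND1, ISL1 and FOXF1) were higher from PPS and 2 of 4 endoderm markers lower, with 2 of 5 amnion markers higher. The summed levels there were 80.6 and 73.6 CPM (paraxial) and 109.9 and 75.7 CPM (lateral) from PPS, while from DE(a) the paraxial sum was 2.27 and 1.92 CPM and the lateral sum 0.542 and 0.698 CPM. After PM, 2 of 4 endoderm markers were lower and 2 of 5 amnion markers higher from PPS. After LM, 3 of 4 endoderm markers were lower from PPS, with sums of 9.21 and 10.3 CPM against 138 and 102 from DE(a), and 1 of 3 paraxial markers was higher. Of the lateral markers after LM 1 of 3 was called higher, with sums of 2038 and 1989 CPM against 451 and 918. The pluripotency genes NANOG and SOX2 were called lower from PPS in all 3 media. ITGB8 was higher from PPS in all 3 media (log2 fold change 2.49 ± 0.25, edgeR adjusted p = 4.1e-07 after DE(b), beside 2.20 ± 0.24 after PM and 3.82 ± 0.27 after LM). ITGA1 was higher from PPS after DE(b) (2.61 ± 0.31) and PM (2.89 ± 0.31), whereas after LM its 2 libraries from PPS, at 44.5 and 32.7 CPM, overlapped those from DE(a), at 31.5 and 50.8. LAMC1 was higher from PPS after DE(b) (1.07 ± 0.22) and LM (1.59 ± 0.22), and so was LAMB1 (1.24 ± 0.17 and 1.07 ± 0.17).

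ITGA9 differed in sign between media, being higher from PPS after DE(b) (1.15 ± 0.28, edgeR adjusted p = 0.0066) and lower after PM (-1.84 ± 0.29). Its DE(b) call ended without DE(a)-DE(b) replicate 2 (1.15) or PPS-DE(b) replicate 1 (1.01). LAMA2 was lower from PPS after DE(b) (-3.16 ± 0.51) and PM (-2.19 ± 0.49), the PM call ending without PPS-PM replicate 1 (-1.64). LAMC3 was lower from PPS after PM (-2.19 ± 0.31) and LM (-1.48 ± 0.30), and ITGA3 likewise (-1.93 ± 0.39 and -2.62 ± 0.40), although its PM call ended without DE(a)-PM replicate 1 (-1.41). After LM, ITGA4 was higher from PPS (2.87 ± 0.50) but at most 5.54 CPM, LAMA1 was lower (-1.51 ± 0.21), and ITGB1 was higher (0.64 ± 0.17), a call that ended without DE(a)-LM replicate 1 (0.57) or without either PPS-LM library (0.62 and 0.67). The summed amnion markers after LM were at 241 and 338 CPM from PPS and 204 and 249.3 from DE(a), with 1 of 5 called higher from PPS, and their part in the LM differences was not tested. With only the compared libraries in the model, 3 members were called after PM in place of 12, and the calls of ITGA3, ITGA9 and LAMA2 were among those lost. Whether the day 1 effect depends on the medium was tested as an interaction over the 12 conditions at 48 h, which called 15 of 34 members (all genes 13.1%), among them ITGA1, ITGA3, ITGA4, ITGA5, ITGA6, ITGA9, ITGA11, ITGB2, ITGB8, LAMA1, LAMA4, LAMB1, LAMC1 and LAMC3. The PPS effect itself differed for 10 members between LM and DE(b) (all genes 8.99%), for 8 between PM and DE(b) (7.71%) and for 7 between LM and PM (6.52%).

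**Figure D5:**
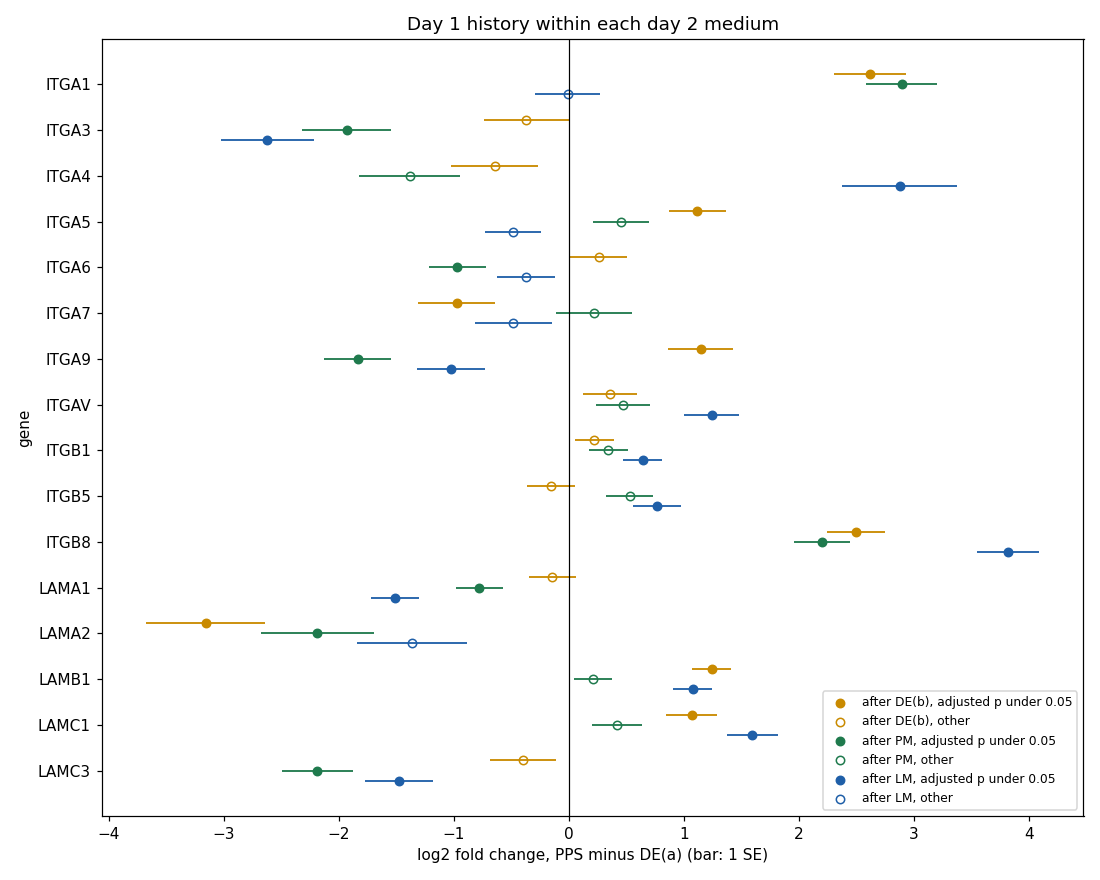
Log2 fold change of PPS against DE(a) history within DE(b) (orange), PM (green) and LM (blue) for 16 well-expressed members called in at least 1 medium, with bars of 1 SE and filled points for an adjusted p under 0.05. ITGB8 lies right of 0 in the 3 media, ITGA1 in DE(b) and PM, and ITGA9 on both sides.

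The genes that work with integrins and laminins were followed as 4 lists, of which the genes named here were picked after their values had been seen. Over all genes, 32.5% were called against the control at 24 h, 45.3% for DE(b), 45% for PM and 48.9% for LM, and nothing is read from a list whose share is near these. Of 14 partners of laminin in basement membranes, the numbers higher and lower than the control were 4 and 3 at 24 h, 8 and 3 for DE(b), 9 and 2 for PM and 9 and 2 for LM. The type IV collagen gene COL4A1 went from a range of 104 to 124 CPM in the control to one of 197 to 1717 CPM in LM (log2 fold change 2.82 ± 0.23), and nidogen NID2, which bridges laminin and collagen, from 5.18 to 7.42 CPM in the control to a range of 40.0 to 752 CPM (5.64 ± 0.47). Of 14 integrin ligands other than laminins, the counts were 4 and 1 at 24 h, 4 and 6 for DE(b), 4 and 6 for PM and 6 and 4 for LM, a share near that of all genes at 24 h. Fibronectin, FN1, which the ITGA5 chain binds, was at 176 to 205 CPM in the control, 215 to 1871 CPM at 24 h and 1084 to 4897 CPM in LM, and rose by 1.54 ± 0.25, 2.85 ± 0.27, 2.29 ± 0.26 and 3.27 ± 0.28 in the 4 blocks. Tenascin C, TNC, a ligand of ITGA9, was at 228 to 578 CPM in DE(b) and also at 251 to 547 CPM in LM. It was at 12.6 to 372 CPM in PM and 16.1 to 17.3 CPM in the control.

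Of 16 adaptors and activators inside the cell, the numbers higher and lower than the control were 11 and 1 at 24 h, 10 and 2 for DE(b), 7 and 2 for PM and 10 and 2 for LM (all genes 32.5%, 45.3%, 45% and 48.9% called in the same order). Talin TLN1, which switches integrins on, rose by 0.84 ± 0.16 at 24 h and 0.95 ± 0.16 in LM. Kindlin-1, FERMT1, typical of epithelia, fell from 41.5 to 42.6 CPM in the control to 0.698 to 4.20 CPM in LM (-4.12 ± 0.21), while kindlin-2, FERMT2, rose at 24 h (0.80 ± 0.15) and in DE(b) (1.22 ± 0.16). Of 9 other laminin receptors and hemidesmosome genes, the numbers were 1 and 2 at 24 h, 2 and 1 for DE(b), 2 and 3 for PM and 4 and 3 for LM, so that the shares at 24 h and for DE(b) were near or below those of all genes. BCAM, which binds the LAMA5 chain, fell from 76.8 to 80.2 CPM in the control in each block (-1.52 ± 0.18 at 24 h, -2.12 ± 0.18 in LM). Dystroglycan, DAG1, another laminin receptor, was higher in LM (0.92 ± 0.19) and lower in PM (-0.61 ± 0.17) than in the control.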

How the data were processed

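Bulk RNA of 34 libraries was analysed. Per the labels and methods, the authors ran Salmon 1.10.2 in quasi-mapping mode on paired-end reads, correcting for GC and sequence bias, on a GRCh38 reference. R 4.4.2 is also in the submitters' processing notes. The values are estimated counts per gene as deposited by the authors, scaled neither for depth nor for length, so CPM depends on gene length, and 0 columns were left unmatched to a sample. Libraries of E-cadherin knockout cells were not analysed here. Counts were rounded, and edgeR 4.0.16 under R 4.3.3 was used with TMM scaling, filterByExpr by condition (17895 of 37951 genes kept, common dispersion 0.0611), 1 mean per condition and 17 residual degrees of freedom. SE is the log2 fold change divided by the square root of F. Depth was 15522780 to 23439799 counts per library, and a group with both libraries at or under 3 counts gives lower bounds only. The study calls its 2 libraries per condition biological replicates. The labels do not say whether they were separate cultures, so p-values measure the spread between these samples. In the 17 conditions the replicates differed by a chi-square per degree of freedom of 11.3 to 63.9, and none was treated as a duplicate.

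CPM and shares were computed with Python 3.11.15, pandas 2.3.3 and numpy 2.4.6, and figures with matplotlib 3.10.9. Exon lengths come from GENCODE v44 (GRCh38) and promoter sequences from RefSeq (GRCh38.p14). Members, lists and tests were chosen with earlier results of these data known. Values by library are given for members averaging 10 CPM or more in a condition. In each comparison log2 fold changes are given for up to 6 called members with the largest change at that level, plus ITGB1, LAMB1 and LAMC1 where called, and genes outside this rule are given by level or range. The values of 1 member are not reported here, though it stays in the counts. Alternatives were RLE factors, no filter, a replicate block, only the libraries compared, DESeq2 1.42.0, each library left out, TMM-scaled CPM and the longest transcript. On simulated data for MPS against APS at 24 h (17668 genes), edgeR called 68.4% of genes given a change of 2 log2 units and 32.3% of those given 1.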

Additional observations from a re-analysis of the deposited data

Results flagged for a closer look

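The effect of PPS against DE(a) history was set against itself between media, as a difference of log2 fold changes ± SE with edgeR adjusted p values from an interaction contrast. Differences were called for 10 of 34 members between LM and DE(b) (all genes 8.99%), 8 between PM and DE(b) (7.71%) and 7 between LM and PM (6.52%). The well-expressed members that were also called within a medium include the following. ITGA1 differed by -2.62 ± 0.42 (adjusted p = 2.1e-04) for LM minus DE(b) and -2.90 ± 0.41 (adjusted p = 1.0e-04) for LM minus PM. ITGA3 differed by -2.25 ± 0.54 (adjusted p = 0.0087) for LM minus DE(b). ITGA4 differed by 3.52 ± 0.63 (adjusted p = 6.5e-04) for LM minus DE(b) and 4.26 ± 0.67 (adjusted p = 2.7e-04) for LM minus PM. Its LM and PM libraries were all low, at most 5.54 CPM, with 0.427 and 1.05 CPM in DE(a)-LM. ITGA4 counts as well expressed through DE(b) only. ITGA5 differed by -1.60 ± 0.35 (adjusted p = 0.0038) for LM minus DE(b). ITGA6 differed by -1.23 ± 0.35 (adjusted p = 0.033) for PM minus DE(b). ITGA9 differed by -2.17 ± 0.41 (adjusted p = 0.0011) for LM minus DE(b) and -2.98 ± 0.41 (adjusted p = 6.3e-05) for PM minus DE(b). ITGB8 differed by 1.32 ± 0.35 (adjusted p = 0.016) for LM minus DE(b) and 1.61 ± 0.34 (adjusted p = 0.0045) for LM minus PM. LAMA1 differed by -1.37 ± 0.29 (adjusted p = 0.0029) for LM minus DE(b). LAMB1 differed by 0.87 ± 0.24 (adjusted p = 0.03) for LM minus PM and -1.03 ± 0.24 (adjusted p = 0.0088) for PM minus DE(b). LAMC1 differed by 1.17 ± 0.31 (adjusted p = 0.022) for LM minus PM. LAMC3 differed by -1.79 ± 0.42 (adjusted p = 0.009) for PM minus DE(b). A positive value means that the PPS effect was the more positive in the medium named first. No group had 4 or more replicates of a condition, so no search for single outlying libraries within a condition was possible.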

How the results depend on the processing

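Of 175 called log2 fold changes of well-expressed members, 0 changed sign in any alternative, and 122 stayed called in all of them. DESeq2 and the replicate block kept all 175 calls, RLE factors 172, no filter 174 and only the compared libraries 155. TMM-scaled CPM left 22 members at 10 CPM or more. Counts of called members moved by more than 1.5 times in these cases. For APS against DE(a) at 24 h the count of 1 became 2 with no filter, 2 with DESeq2 and 0 with only the compared libraries. MPS against APS at 24 h went from 3 to 5 with no filter. With only the compared libraries, PPS against MPS at 24 h went from 8 to 3 and PPS against DE(a) after PM from 12 to 3. Fewer libraries in a fit leave fewer degrees of freedom.

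Leaving out each library in turn gave 0 to 1 calls for APS against DE(a) at 24 h (0 without DE(a)-24h replicate 1), and 2 to 10 for PPS against MPS at 24 h (2 without MPS-24h replicate 1, 3 without PPS-24h replicate 2). It gave 10 to 11 for DE(a)-DE(b) against DE(a) at 24 h, below 17 without any of the 4 libraries. APS-PM against APS at 24 h had 7 to 9 (7 without APS-24h replicate 1, 8 without APS-24h replicate 2 or APS-PM replicate 1). PPS against DE(a) had 6 to 11 after PM (6 without DE(a)-PM replicate 1, 7 without PPS-PM replicate 2) and 8 to 14 after LM (8 without PPS-LM replicate 2). In these fits a condition left with 1 library is assumed to vary like the others.

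The replicate numbers were not treated as pairing the samples in the main model. All replicate 1 libraries were deposited as 1 set and all replicate 2 libraries as another, named a repeat. What else separates these sets is not given in the sources used here. Over 136 pairs of conditions, the correlation of same-numbered deviations ran from -0.07 to 0.34, and 43 exceeded 0.1, which does not exclude a shared effect of the set. With the replicate block the members called were 16 in place of 13 for 24 h against control and 12 in place of 8 for PPS against MPS at 24 h. With the longest transcript the LAMB2 share of the beta level in the control was 54.4% in place of 72.8%, which keeps LAMB2 above LAMB1 there, while in PPS-LM it went from 56.6% to 36.6% and the order turned. In the control the ITGB1 share went from 36.5% to 50.3% and that of ITGB5 from 62.3% to 48.7%, so that with the longest transcript they differed by less than their SDs over the 2 replicates. At this depth and replication, 32.3% of simulated differences of 1 log2 unit were called for MPS against APS at 24 h.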
